A study of Boehmeria nivea with 18 samples.

Results

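The long non-coding RNAs (lncRNAs) described here were those with a higher level in bark from the middle section of the ramie stem (MPS) than in bark from the top section (TPS). Ramie (Boehmeria nivea) is a crop grown for its long bast fibers, and the cultivar was Zhongzhu 1. A lncRNA was taken when it was shorter than 4000 nt, when its lowest value in the 3 MPS libraries was at least 1.5 times its highest value in the 3 TPS libraries, and when its MPS mean was at least 1 FPKM (fragments per kilobase of transcript, scaled to the depth of the library). Of 6492 lncRNAs under the length limit, 83 met this rule (1.28%), among 6733 lncRNAs and 39728 transcripts in all. The rule mirrored, with TPS above MPS, took 178 of the 6492 (2.74%). The 83 were chosen by their FPKM values in both sections, so that the section difference of these 83 MPS-high lncRNAs is given as a description.

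Each section had 3 replicates, and every sample was bark of 5 plants. The labels give an age of 40 days for both sections, whereas the methods give a younger age. By the labels, fibers in the MPS were thickening their secondary walls, and those in the TPS had not yet begun to. RNA freed of ribosomal RNA was sequenced, so that lncRNAs and mRNAs came from the same 6 libraries. The summed expected counts ranged from 49056682 to 52971221 per library. No label says what a replicate number marks, so that tests measure the spread between these samples. In bulk bark, fewer cells of a type and less RNA per cell cannot be told apart.

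Bast fibers are long cells of the phloem side of the stem. They first elongate near the top of the stem and then, further down, lay down a thick secondary wall that is rich in cellulose. LncRNAs are transcripts without a recognisable protein-coding frame, and single lncRNAs in plants are known to act on genes beside them or on distant genes, to bind proteins or to capture microRNAs. The files used here give a length but no function and no position for any of the 83, so that they are named by their identifiers (LTCONS_ numbers) and ordered by level.

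The replicate 1 libraries stood apart. Over the 2911 lncRNAs with a mean of at least 1 FPKM, log2(FPKM + 0.5) correlated at r = 0.885 between MPS 1 and TPS 1, and MPS 1 correlated with MPS 2 and MPS 3 at r = 0.720 and 0.702. MPS 2 and MPS 3 correlated at r = 0.965, and TPS 2 and TPS 3 at r = 0.966. These are correlations across lncRNAs, which are not independent replicates. For the 83 lncRNAs the rule requires that MPS 1 lies above all TPS libraries, TPS 1 included, unless all of these are at 0. With replicates 2 and 3 alone the rule took 305 lncRNAs, and 76 of the 83 were among them. Leaving out TPS 1 alone also gave 305, and leaving out MPS 1 alone gave 199.

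Some of the genes listed as markers of walls and cell types also set replicate 1 apart. The secondary wall cellulose synthase gene BntWG10024039 was at 42.7, 190 and 215 FPKM in MPS 1, 2 and 3, against 51.1, 14.9 and 12.2 FPKM in TPS 1, 2 and 3. MPS 1 thus lay below TPS 1, while the other MPS libraries lay far above the other TPS libraries. Of the 9 secondary wall genes on the list, 4 had every MPS library above every TPS library, and 1 was lower in every MPS library. That gene was the xylan gene IRX15-L (BntWG10008444), at 7.43, 4.87 and 7.59 FPKM in MPS and 29.8, 28.2 and 35.9 FPKM in TPS. Of the 4, the laccase BntWG10014339 was at 0.07 to 1.87 FPKM in MPS, against 0.01 to 0.06 FPKM in TPS. GUX2 (BntWG10010174) was at 0.15 to 0.48 FPKM in MPS, against 0.05 to 0.08 FPKM in TPS. Both of these and the laccase BntWG10014338 did not pass the filter on low counts of the edgeR test given below. By that test 0 of the 9 were called higher, and IRX15-L was called lower (adjusted p = 0.0434). No share of all annotated genes was taken. The summed level of the secondary wall genes was 113 to 429 FPKM in MPS and 59.0 to 147 FPKM in TPS. All 3 genes of growing cells (a D-type cyclin and 2 expansins) were lower in every MPS library, with sums of 6.80 to 8.48 FPKM in MPS and 36.2 to 95.2 FPKM in TPS. Both cuticle genes were lower in every MPS library too, with sums of 0.68 to 3.21 FPKM in MPS and 9.04 to 19.0 FPKM in TPS. Of the 2 phloem genes, SEOB, which encodes a sieve element protein, was above TPS in every MPS library at 0.49, 1.81 and 2.73 FPKM, against 0.21, 0.05 and 0.02 FPKM in TPS. The other phloem gene, SUS6, was listed only in MPS 1. In the lists of green cells and of xylem cell death, 1 of 2 genes each was lower in every MPS library and none was higher in all. The secondary wall laccase BntWG10014338 was near 0 in MPS, at 0.01 to 0.16 FPKM, and at 0 in TPS. The study chose many of these genes on the same samples, and their part in the levels of the lncRNAs was not tested.

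The 83 lncRNAs covered 3 orders of magnitude in level. Their MPS means ran up to 1039 FPKM with a median of 2.35 FPKM, and their TPS means ran up to 399.7 FPKM with a median of 0.323 FPKM. There were 5 with an MPS mean of at least 100 FPKM, 15 between 10 and 100 FPKM, 23 between 2 and 10 FPKM, and 40 under 2 FPKM. Most of the set was therefore of low level, and a few abundant lncRNAs carried its sum. The 5 most abundant held 79.3% of the summed MPS level, and the first alone held 36.7%.

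Summed over the 83, the level was 2467, 2950 and 3082 FPKM in MPS 1, 2 and 3, against 930, 659 and 709 FPKM in TPS 1, 2 and 3. The MPS mean was 3.70 times the TPS mean, and 4.41 times with replicates 2 and 3 alone. The 83 made up 0.553%, 0.731% and 0.616% of all lncRNA FPKM in MPS, against 0.251%, 0.214% and 0.241% in TPS. The set was thus a small share of the lncRNA signal in both sections.

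**Figure D1:**
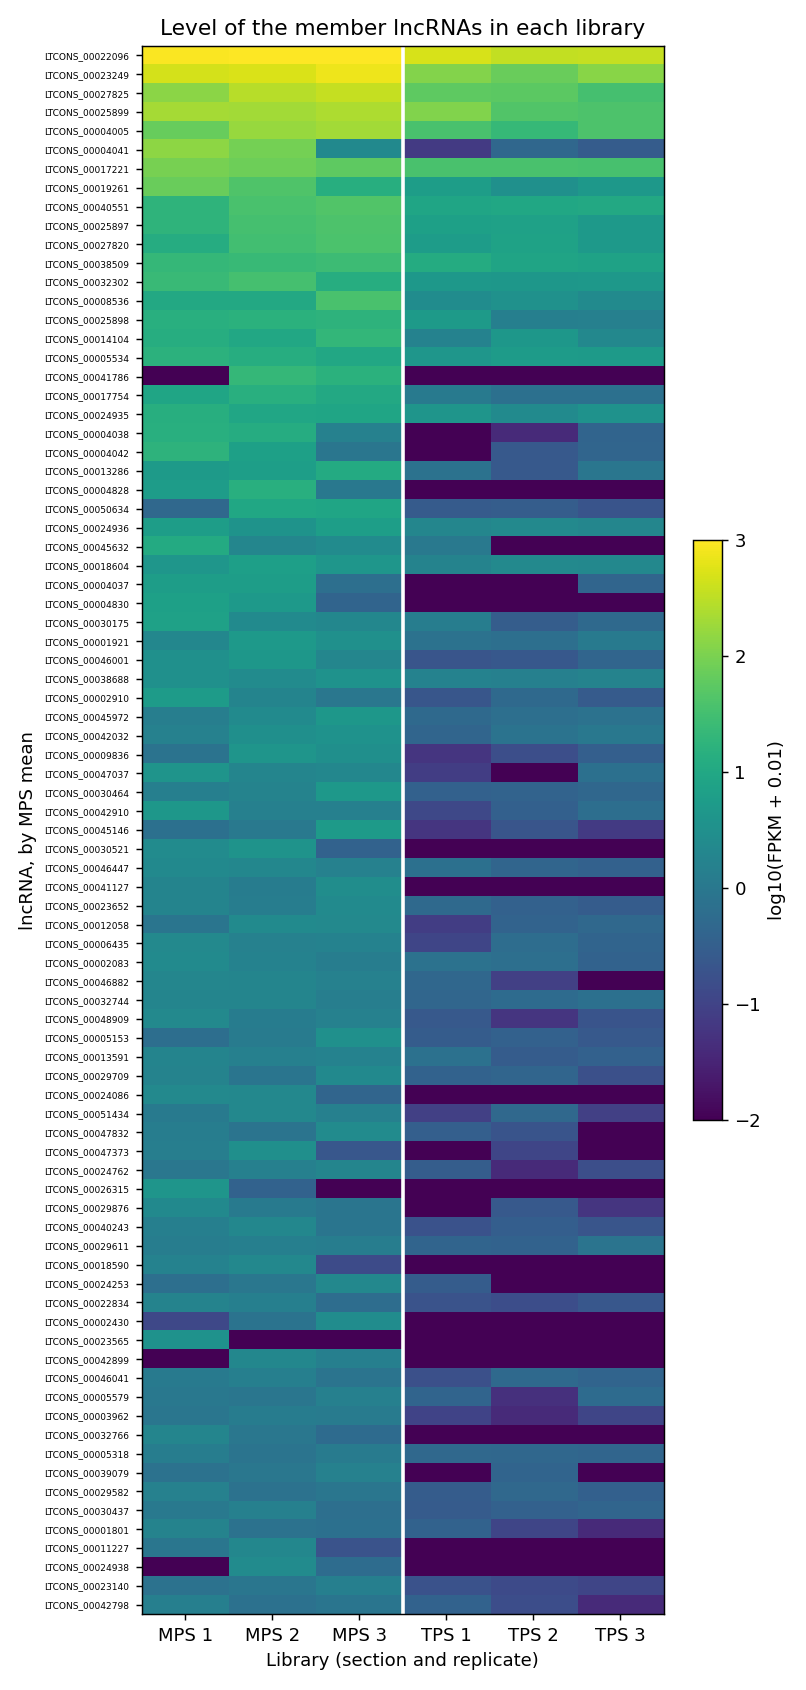
FPKM of each of the 83 lncRNAs (rows, by MPS mean) in MPS 1 to 3 (left) and TPS 1 to 3 (right), on a colour scale of log10(FPKM + 0.01). The rows are brighter on the left on average, since the rule chose them so, and the dark cells on the left are MPS libraries in which a lncRNA was listed at 0 or near it.

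LTCONS_00022096, of 1573 nt, was the most abundant. It was at 934, 1130 and 1051 FPKM in MPS 1, 2 and 3, against 487, 353 and 359 FPKM in TPS 1, 2 and 3. Its spread was among the smallest of the set in proportion to its level, and its lowest MPS library was well above TPS 1. Its mean was 1039 ± 98.4 FPKM in MPS and 2.60 times that of TPS. Its expected counts were not whole numbers, so that reads were shared with other transcripts. The lncRNA before it by number, LTCONS_00022095, was far higher, at 12202, 18235 and 20093 FPKM in MPS. In TPS that lncRNA was at 9014, 15379 and 14051 FPKM. Whether the 2 share reads was not tested. LTCONS_00023249, of 658 nt, was at 469, 531 and 744 FPKM in MPS, against 118, 70.8 and 127 FPKM in TPS. All of its MPS libraries were more than 3 times its highest TPS library, the widest gap among the 5 lncRNAs of at least 100 FPKM.

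LTCONS_00027825 was at 133, 285 and 359 FPKM in MPS, against 56.7, 54.1 and 33.3 FPKM in TPS, and its expected counts were not whole numbers either. LTCONS_00004005 was at 68.1, 169 and 204 FPKM in MPS, against 36.8, 22.6 and 39.8 FPKM in TPS. In both of these MPS 1 was the lowest of the MPS libraries and lay well below MPS 2. LTCONS_00040551 had the same shape at a lower level, with 18.1, 35.9 and 43.3 FPKM in MPS and 8.56, 9.39 and 10.3 FPKM in TPS.

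Other abundant lncRNAs had their low MPS library elsewhere. LTCONS_00017221 was at 93.7, 79.0 and 56.5 FPKM in MPS, against 36.8, 36.5 and 35.2 FPKM in TPS, and it passed the ratio limit narrowly. LTCONS_00019261 was at 70.5, 41.5 and 13.7 FPKM in MPS, against 6.09, 3.26 and 4.69 FPKM in TPS. Its MPS libraries were further from each other, by ratio, than the lowest of them was from TPS.

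**Figure D2:**
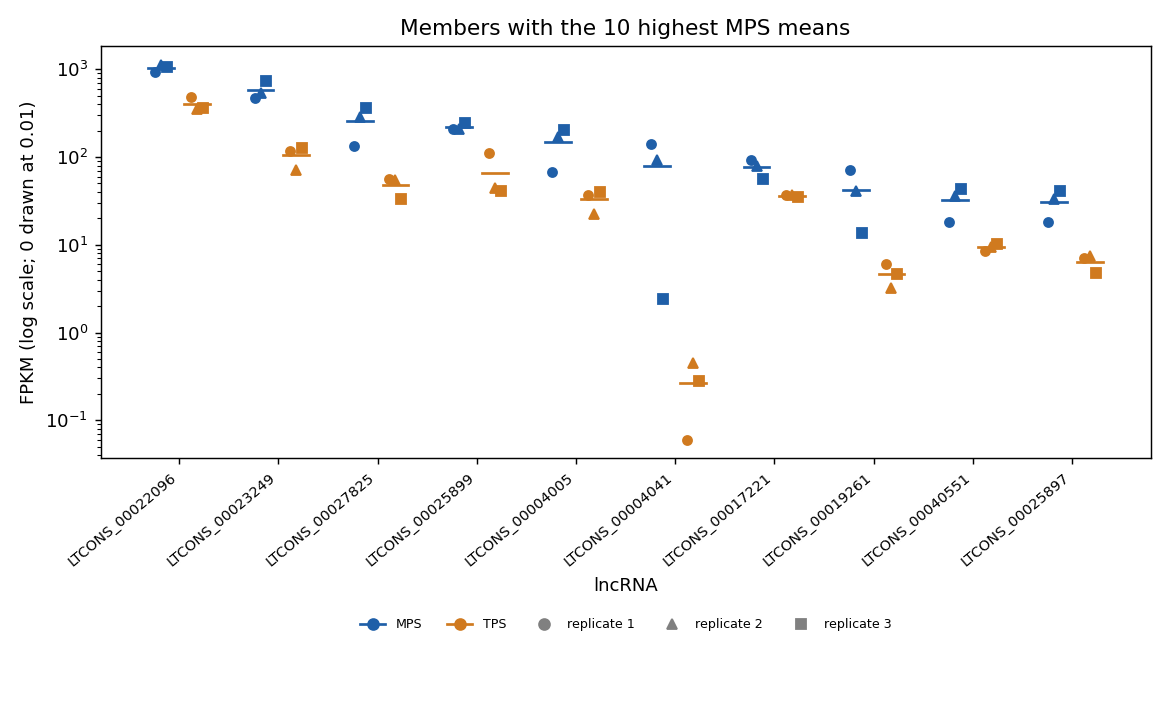
FPKM (log axis) of the 10 lncRNAs with the highest MPS means, in MPS (blue, left) and TPS (orange, right), with 1 symbol per replicate and a line at each section's mean. LTCONS_00004041 stands out by its range, with MPS 3 at 2.40 FPKM and MPS 1 at 142 FPKM, while LTCONS_00022096 and LTCONS_00017221 lie in narrow bands.

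Among the 69 lncRNAs listed in at least 1 TPS library, the MPS mean was 1.92 to 299 times the TPS mean, with a median of 5.66 times. The lowest MPS library was 1.5 to 2 times the highest TPS library for 31 of them, 2 to 3 times for 23 and at least 3 times for 15. The widest gap of this kind was in LTCONS_00003962, where the lowest MPS value was 9 times the highest TPS value. LTCONS_00017754, of 781 nt, was next, at 8.65, 14.3 and 10.5 FPKM in MPS, against 1.08, 0.68 and 0.7 FPKM in TPS. LTCONS_00013286 was at 5.35, 6.30 and 11.2 FPKM in MPS, against 0.75, 0.24 and 0.92 FPKM in TPS. In these last 2 the expected counts were whole numbers in all libraries, so that there was no sign of reads shared with another transcript.

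The other 14 of the 83 were listed in no TPS library, which for these files means a level under 0.01 FPKM. LTCONS_00004828 was at 5.71, 14.0 and 1.00 FPKM in MPS, LTCONS_00004830 at 6.96, 4.94 and 0.39 FPKM, and LTCONS_00030521 at 2.52, 3.62 and 0.36 FPKM. LTCONS_00018590 was at 1.62, 2.14 and 0.13 FPKM. In all 4 MPS 3 was the lowest library. LTCONS_00002430 went the other way, with 0.11, 0.79 and 2.74 FPKM in MPS 1, 2 and 3.

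In 5 of these 14, at least 1 MPS library was also listed at 0, so that the ratio was met only because 0 is not less than 0. LTCONS_00041786 was at 0, 21.2 and 15.5 FPKM in MPS 1, 2 and 3. LTCONS_00023565 was at 3.57 FPKM in MPS 1 and at 0 in MPS 2 and MPS 3. LTCONS_00026315, LTCONS_00042899 and LTCONS_00024938 were also listed at 0 in 1 MPS library. For these 5 the sections overlap at 0. With every MPS library required to be listed, the rule took 78. Under the length limit, 2728 lncRNAs had at least 1 FPKM in MPS. With no ratio limit, 262 of these (9.6%) had every MPS library above every TPS library, the 78 among them.

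The limits of the rule cut through a continuous range. Just inside the ratio limit were LTCONS_00038688 (1.52 times), LTCONS_00030175 (1.53 times) and LTCONS_00017221 (1.53 times), and just outside it LTCONS_00012347 (1.49 times), LTCONS_00035725 (1.49 times) and LTCONS_00005433 (1.49 times). LTCONS_00012347 was at 1.21, 1.18 and 1.23 FPKM in MPS, against 0.71, 0.79 and 0.67 FPKM in TPS, which is a tighter separation than in many of the 83. The lowest MPS means inside were those of LTCONS_00042798 (1.00 FPKM), LTCONS_00023140 (1.01 FPKM) and LTCONS_00024938 (1.04 FPKM). The highest outside were those of LTCONS_00036563 (0.993 FPKM), LTCONS_00006216 (0.943 FPKM) and LTCONS_00032894 (0.923 FPKM). By length, LTCONS_00024936 (3911 nt) and LTCONS_00024938 (3905 nt) were the longest inside, and LTCONS_00000583 (4415 nt) was the only lncRNA that the length limit kept out.

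Within the MPS, the 83 did not share a single order of libraries. The lowest MPS value was in MPS 1 for 32, in MPS 2 for 19 and in MPS 3 for 32. The highest was in MPS 1 for 30, in MPS 2 for 24 and in MPS 3 for 29. For the 78 listed in all MPS libraries, the median ratio of the highest to the lowest MPS library was 2.32. It was 1.99 for other lncRNAs under the length limit, of at least 1 FPKM in MPS and listed in all MPS libraries. In 19 of the 83 (22.9%) the lowest MPS library was under 1/3 of the next. Of the 2645 other lncRNAs at that level, 369 (14.0%) had such a library. It was MPS 3 in 13 of the 19 and MPS 1 in 6, and among the 369 it was MPS 3 in 65 and MPS 1 in 262. The rule asks MPS 1 to exceed TPS 1, the library it most resembles, so that the 2 sets were chosen differently with regard to MPS 1.

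In proportion to level, LTCONS_00045632 had one of the widest spreads, at 11.2, 1.99 and 2.58 FPKM in MPS, against 1.05, 0 and 0 FPKM in TPS. LTCONS_00024253 was at 0.66, 0.94 and 2.15 FPKM in MPS, against 0.27, 0 and 0 FPKM in TPS. In both TPS 1 was the only TPS library listed. LTCONS_00047373 was at 1.37, 3.02 and 0.22 FPKM in MPS, against 0, 0.1 and 0 FPKM in TPS. At the other end, LTCONS_00005318 was at 1.28, 0.84 and 1.17 FPKM in MPS, against 0.47, 0.46 and 0.42 FPKM in TPS, a low level with little spread.

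Several of the lncRNAs with a low MPS 3 had neighbouring identifiers. LTCONS_00004041, of 789 nt, was at 142, 91.7 and 2.40 FPKM in MPS 1, 2 and 3, against 0.06, 0.45 and 0.28 FPKM in TPS. LTCONS_00004038 was at 14.2, 12.5 and 1.60 FPKM in MPS, against 0, 0.03 and 0.39 FPKM in TPS. LTCONS_00004042 was at 17.2, 7.07 and 0.91 FPKM in MPS, against 0, 0.24 and 0.42 FPKM in TPS. LTCONS_00004037 also had a low MPS 3, at 6.13, 6.15 and 0.66 FPKM in MPS, with 0, 0 and 0.41 FPKM in TPS.

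In all 4 the MPS 3 value was many times below MPS 1 and MPS 2, and close to the highest TPS value for LTCONS_00004037. Another lncRNA of this run, LTCONS_00004035, was at 10.7, 14.0 and 0.88 FPKM in MPS, against 0.15, 0.23 and 1.09 FPKM in TPS. It shared the low MPS 3 and failed the rule because MPS 3 lay under TPS 3. The next assembled coding transcript by number, MTCONS_00004044, did not share the low MPS 3, at 23.4, 31.6 and 35.5 FPKM in MPS and 36.8, 36.2 and 28.4 FPKM in TPS. The expected counts of the 4 lncRNAs were not whole numbers, so that the counting program shared out reads among transcripts and their levels may not be independent of each other.

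LTCONS_00025897, LTCONS_00025898 and LTCONS_00025899 formed a run of a different shape. LTCONS_00025899, of 293 nt, was at 210, 206 and 245 FPKM in MPS, against 111, 43.9 and 41.0 FPKM in TPS. LTCONS_00025898 was at 14.4, 15.4 and 17.3 FPKM in MPS, against 5.30, 1.45 and 1.47 FPKM in TPS. In these 2 the MPS libraries were close together, and TPS 1 stood above the other TPS libraries. LTCONS_00025897 was at 18.1, 33.7 and 40.8 FPKM in MPS, against 7.08, 7.38 and 4.83 FPKM in TPS, so that in this one MPS 1 was the low library instead. The expected counts of all lncRNAs of this run were not whole numbers, so that their levels, too, may not be independent.

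**Figure D3:**
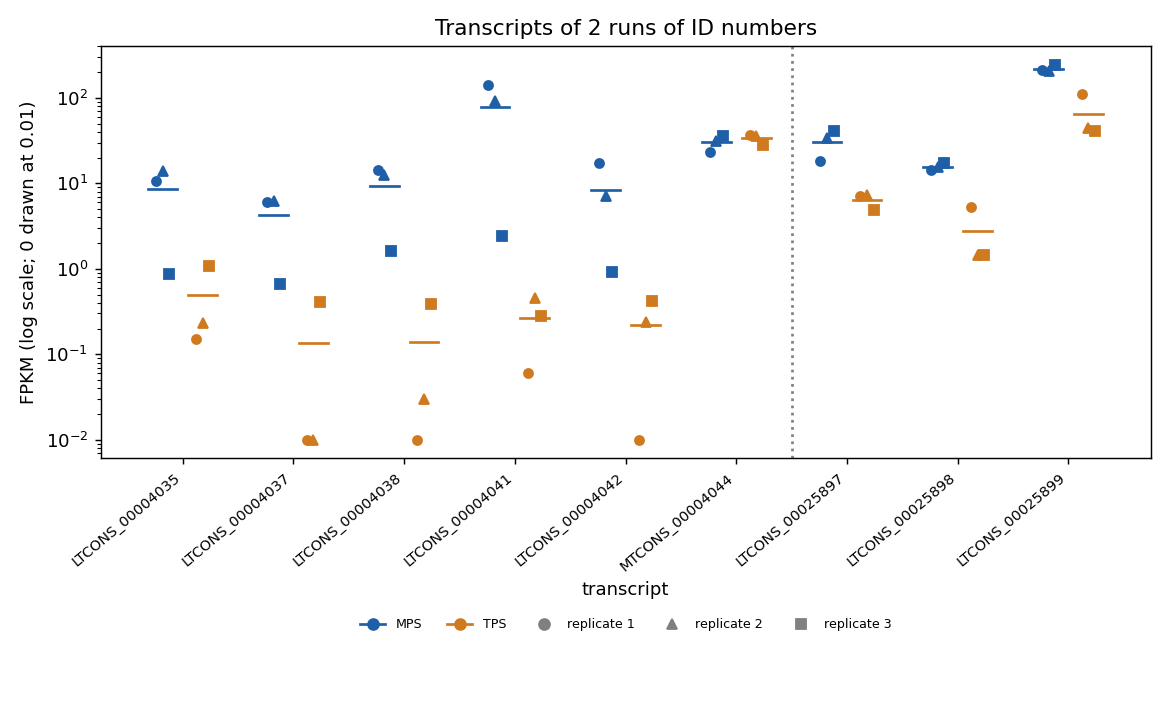
FPKM (log axis, 0 drawn at 0.01) of transcripts in 2 runs of identifiers, in MPS (blue, left) and TPS (orange, right), with 1 symbol per replicate and a line at each section's mean. Left of the dotted line, MPS 3 (square) is far below the other MPS libraries in the 5 lncRNAs but not in the coding transcript MTCONS_00004044, and right of it the MPS libraries lie close together for LTCONS_00025898 and LTCONS_00025899, with MPS 1 the lowest for LTCONS_00025897.

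Of the other runs, LTCONS_00024935 was at 13.5, 9.29 and 8.78 FPKM in MPS and 3.97, 2.46 and 3.58 FPKM in TPS. LTCONS_00024936 was at 6.08, 3.65 and 6.34 FPKM in MPS and 2, 2.25 and 2 FPKM in TPS. LTCONS_00027820 was at 12.6, 31.1 and 37.7 FPKM in MPS and 5.72, 7.54 and 4.78 FPKM in TPS, the same order of MPS libraries as LTCONS_00027825. Whether transcripts with consecutive numbers lie side by side in the genome is not stated in the files, and lncRNAs and assembled coding transcripts had no number in common.

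Some of the 83 had a partner of nearly the same length and number, and for these the counting program may have moved reads from one to the other. This was looked at for lncRNAs within 3 numbers and 20 nt, which 13 of the 83 had. LTCONS_00041127 was at 1.83, 1.27 and 2.82 FPKM in MPS and listed at 0 in all TPS libraries. Summed with its partner LTCONS_00041126, the level was 1.83, 4.65 and 5.30 FPKM in MPS, against 3.38, 4.37 and 4.10 FPKM in TPS. The sections of the sum overlapped. LTCONS_00042899 with its 3 partners summed to 2.72, 2.30 and 2.05 FPKM in MPS, against 2.54, 1.89 and 2.30 FPKM in TPS, which also overlapped.

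For LTCONS_00024936 and LTCONS_00024938 the sum was tighter than either alone, at 6.08, 6.2 and 6.91 FPKM in MPS, against 2, 2.25 and 2 FPKM in TPS. The zero of LTCONS_00024938 in MPS 1 thus stood beside a full level of its partner. Of the 13, 7 no longer met the rule as sums, and they were LTCONS_00024086, LTCONS_00026315, LTCONS_00029709, LTCONS_00038509, LTCONS_00041127, LTCONS_00042899 and LTCONS_00051434. This left 76 of the 83.

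**Figure D4:**
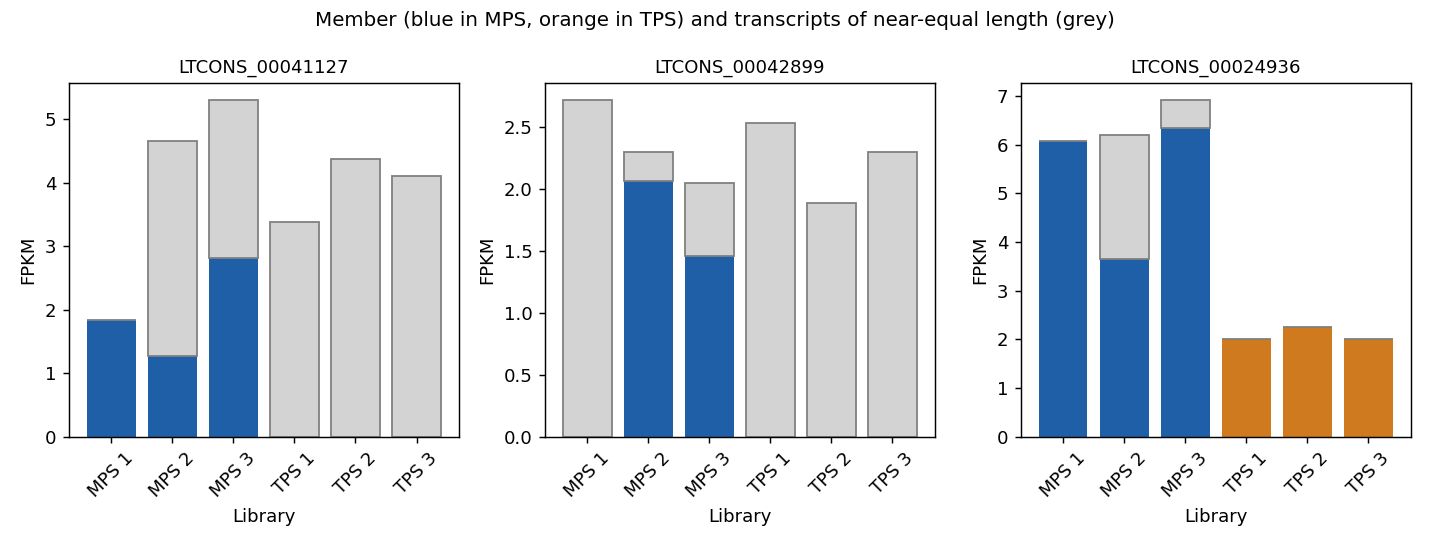
FPKM per library (bars from 0, MPS left of TPS) of 3 lncRNAs (coloured) stacked with their partners of nearly equal length (grey). For LTCONS_00041127 and LTCONS_00042899 the grey part fills the TPS bars and the sums overlap between sections, while for LTCONS_00024936 the summed MPS bars stay at 6.08 to 6.91 FPKM, above 2.25 FPKM.

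Shared reads were about as frequent in the set as elsewhere. Expected counts were whole numbers in all 6 libraries, within 0.005, for 34 of the 83 (41.0%) and for 1034 of the 2645 others (39.1%). Their lengths ran between 208 and 3911 nt with a median of 789 nt, and the other lncRNAs under the limit had a median of 756 nt. The depth behind the values varied. In 38 of the 83 every MPS library held at least 50 expected counts, and in 16 at least 1 MPS library held fewer than 10.

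The counts were also compared with edgeR's quasi-likelihood test, fitted to all 29520 transcripts that passed the filter on low counts, 67 of the 83 among them. Calls needed a log2 fold change of 1 or more in size, and a p under 0.05 after Benjamini-Hochberg adjustment. Of the 67, 2 were called higher in MPS, beside 0.0441% of the 4539 lncRNAs in the fit, and these 2 were the only lncRNAs called higher. They were LTCONS_00017754, with a log2 fold change of 3.77 ± 0.34 (SE), and LTCONS_00023249, with 2.48 ± 0.30 (SE). Of the 67, 63 had an unadjusted p under 0.05, beside 4.6% of the lncRNAs in the fit that were higher in MPS at that level. Nothing is read from these counts, since the rule chose the 83 on the same libraries.

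The median log2 fold change of the 67 was 2.52, and that of all lncRNAs in the fit was -0.04. LTCONS_00022096 had a log2 fold change of 1.40 ± 0.19 (SE), and LTCONS_00004041 had 8.16 ± 1.71 (SE). The large SE of the second goes with its MPS 3 value of 2.40 FPKM.

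The number called differed between fits. With the replicate number as a block, 0 of the 67 were called, beside 0% of the lncRNAs, although 58 had an unadjusted p under 0.05. With p adjusted over lncRNAs alone, 0 were called, and the unadjusted p was under 0.05 for the same 63. With replicate 1 as a term, 14 were called, beside 0.617%, and with replicates 2 and 3 alone 10 of 71, beside 0.551%. DESeq2 called 48 of 67, beside 2.09%, and limma on log2(FPKM + 0.5) called 16 of 67, beside 0.375%. With any 1 library left out, edgeR called 0 of the 67 to 80 that passed the filter, and 0 of all lncRNAs in the fit. Of the 67 to 80, 49 to 61 had an unadjusted p under 0.05 by edgeR. For the block and for these fits, no share of all lncRNAs at that p was taken. Nothing is read from these counts, since the rule chose the 83 on the same libraries.

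Assembled coding transcripts whose number is next to one of the 83 were not used by the rule and could be tested. There were 12, and 9 passed the filter. Of these 9, 0 were called higher in MPS by edgeR, beside 0.114% of the 11396 assembled coding transcripts in the fit. By edgeR 2 had an unadjusted p under 0.05, and DESeq2 called 2. For these last 2 counts no share of all assembled coding transcripts was taken, and neither is read as a result. Their median log2 fold change was 0.00, and 5 of 9 were above 0, beside 49.8% of all assembled coding transcripts. A log2 fold change of at least 1 was found in 2 of 9, beside 5.77% of them. These 9 are too few to tell whether coding neighbours by number share a direction, and nothing is read from their counts.

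The highest of the 9 was MTCONS_00032303, next to LTCONS_00032302. It was at 8.36, 10.3 and 4.82 FPKM in MPS, against 3.50, 2.75 and 2.78 FPKM in TPS, a log2 fold change of 1.39 ± 0.27 (SE). LTCONS_00032302 itself was at 24.5, 33.8 and 12.8 FPKM in MPS, against 4.57, 4.40 and 4.64 FPKM in TPS. Both had their lowest MPS value in MPS 3 and their highest in MPS 2. The coding transcript missed the threshold of edgeR (adjusted p = 0.0913).

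Within 3 numbers there were 64 assembled coding transcripts, of which 58 were tested and 1 was called higher by edgeR, beside the 0.114% of all assembled coding transcripts, and 0 were called lower. Of the 58, 22 had a log2 fold change above 0, beside 49.8%, 6 had one of at least 1, beside 5.77%, and 8 had one of -1 or below. An unadjusted p under 0.05 by edgeR, in either direction, was found for 12. For the 12 and the 8, no share of all assembled coding transcripts was taken. Neither count is read as a result. The change of greatest size was downward, in MTCONS_00009833, 3 numbers from LTCONS_00009836, at 0.75, 2.68 and 0.8 FPKM in MPS, against 32.3, 60.1 and 43.7 FPKM in TPS. Its log2 fold change was -5.04 ± 0.68 (SE) by edgeR (adjusted p = 0.056), and it was not called. The one called higher was MTCONS_00047035, 2 numbers from LTCONS_00047037. It was at 10.3, 19.8 and 15.1 FPKM in MPS, against 1.21, 0.77 and 0.76 FPKM in TPS, with no overlap of the sections. Its log2 fold change was 4.07 ± 0.34 (SE) by edgeR (adjusted p = 0.0386). With the replicate block the adjusted p was 0.0627, and with 1 library left out it was 0.0558 to 0.252, so that the call was lost in each of these fits. The call was kept in the other fits. Among them were DESeq2 (adjusted p = 4.34e-26), limma on log2(FPKM + 0.5) (adjusted p = 0.00845) and edgeR without the filter (adjusted p = 0.0447). With replicates 2 and 3 alone edgeR gave an adjusted p of 0.0161. The log2 fold change was 3.04 to 4.46 over all fits. LTCONS_00047037 was at 3.84, 1.89 and 2.08 FPKM in MPS, against 0.07, 0 and 0.7 FPKM in TPS, and its order of MPS libraries was another one. The files do not say what protein MTCONS_00047035 encodes.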

How the data were processed

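Bark of MPS and TPS (3 replicates each) was compared in the 6 cDNA libraries. The small RNA and circRNA libraries were not used here. The authors assembled transcripts with HISAT and StringTie, judged their coding potential with CPC, CNCI, txCdsPredict and PFAM, aligned reads with Bowtie2 and counted them with RSEM. The deposited expected counts are RSEM's estimates, which share reads among similar transcripts, and they were rounded before testing. The deposited FPKM values were calculated by the authors per length and depth, and transcripts under 0.01 FPKM are not listed and were taken as 0. For these tools neither a version nor the strand setting is stated. No sequence or position of a lncRNA was used.

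The 83 lncRNAs, the marker genes and the tests were chosen with earlier results of these data known. Rounded counts were compared with edgeR 4.0.16 (TMM, filterByExpr, quasi-likelihood test, p adjusted over all transcripts in the fit) in R 4.3.3, and with DESeq2 and limma as alternatives. SEs were derived from the log2 fold change and its F statistic and are approximate. The edgeR step was tested on simulated data that had less spread between replicates than these libraries and no replicate effect. That test does not show how the step performs on these libraries. Tables were made in Python 3.11.15 with pandas 2.3.3. LncRNAs were named for the 10 largest section ratios (those at 0 in TPS first), the 10 highest MPS means, the limits of the rule, the 5 smallest and largest spreads and consecutive numbers. Others, such as LTCONS_00003962, LTCONS_00013286, LTCONS_00017754, LTCONS_00032302 and LTCONS_00047037, and partners and coding neighbours, were named after their values were seen. The lncRNAs that the study's text names were not among the 83.

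Both sections number their replicates 1 to 3. Over 2861 lncRNAs of at least 1 FPKM, the 83 left out, deviations from the section means correlated at r = 0.804, 0.559 and 0.671 for replicates 1, 2 and 3. The main fits by edgeR, DESeq2 and limma compared the sections without the replicate numbers, so that their SEs and calls leave this resemblance out. The result with the replicate block, which pairs the samples by number, is given beside the count of calls. Between MPS 2 and TPS 3, and MPS 3 and TPS 2, r was 0.626 and 0.632, so that replicates 2 and 3 are not told apart by this. Within the 83 the r of same-numbered libraries was 0.004, 0.093 and -0.214 for replicates 1, 2 and 3. The resemblance was thus not seen in the 83, but the rule chose them on these same values.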

Additional observations from a re-analysis of the deposited data

How the results depend on the processing

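The rule took 130 lncRNAs at a lower ratio limit, 52 at a ratio of 2 and 29 at 3, and 133 with an MPS mean of at least 0.5 FPKM and 43 with at least 2 FPKM. Leaving out 1 library at a time gave 98 to 305, with 305 without TPS 1, 199 without MPS 1 and 145 without MPS 3, and replicates 2 and 3 alone gave 305. Without TPS 1 all 83 remained, and with replicates 2 and 3 alone 76 did. FPKM over the TMM factor gave 92, of which 76 were among the 83. Both the requirement that every MPS library be listed and the sums of near-equal partners were chosen after seeing the data.

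The members called by edgeR numbered 2. The count was 0 with p adjusted within each class, 0 without the filter on low counts, 0 with the replicate block (pairing), 0 to 0 with 1 library left out, 14 with a term for replicate 1 (added once the data had been seen), 10 with replicates 2 and 3 alone, 48 by DESeq2, and 16, 15 and 15 by limma with 0.5, 0.1 and 1 added. The median log2 fold change of 2.52 became 1.59, 2.26 and 1.20 by limma with 0.5, 0.1 and 1 added and 2.74 without the filter, and was 2.55 to 2.82 with 1 library left out. The summed level, 3.70 times TPS, was 3.46 to 4.14 times with 1 library left out (4.14 without TPS 1), 4.41 times with replicates 2 and 3 alone (chosen after seeing the data) and 4.90 times without LTCONS_00022096. Coding transcripts next by number called higher were 2 by DESeq2, for which no share of all coding transcripts was taken. With up to 3 numbers 1 was called by edgeR, beside 0.114% of all assembled coding transcripts. By edgeR, the replicate block ended the calls of LTCONS_00017754 (adjusted p = 0.065), LTCONS_00023249 (adjusted p = 0.0541) and MTCONS_00047035 (adjusted p = 0.0627). All of these were called by DESeq2, by limma with 0.5, 0.1 or 1 added, and by edgeR with a term for replicate 1. With replicates 2 and 3 alone, LTCONS_00017754 and MTCONS_00047035 were called and LTCONS_00023249 was not. The rule chose the lncRNAs on the same libraries, so that their calls are a description. With 3 replicates per section, low counts in single libraries limit what a separation shows. The causes of these changes were not tested.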
